A study of Homo sapiens with 2 samples.

Results

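Metallothioneins are small intracellular proteins that hold zinc and copper, and also bind toxic metals such as cadmium. They are examined here with MTF1, the zinc-sensing transcription factor that switches them on, and SLC30A1, the zinc exporter of the cell surface that MTF1 also controls. The set has 10 genes, MT1A, MT1E, MT1F, MT1G, MT1M, MT1X, MT2A, MT4, MTF1 and SLC30A1, chosen by gene name from 56544 genes, and all 10 were found. The measurements come from RNA sequencing of HGC-27, a long-established cell line whose label gives an undifferentiated gastric cancer. There was 1 library of cells given a control peptide (Ctrl) and 1 of cells given a peptide named SOS in the sample titles and SHAP in the series title, a peptide known to derive from STRN3 of the Hippo pathway. Both groups received their peptide in PDPA micelles for 48 h, in RPMI medium with serum, so carrier and medium were common to both. As each group has 1 library, nothing here could be checked against a replicate or tested, and the text describes these 2 libraries only.

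ZIP transporters bring zinc into the cytosol, from outside the cell or out of compartments. There it is bound by metallothioneins, or moved by ZnT transporters out of the cell or into compartments. When free zinc rises, MTF1 moves to the nucleus and binds metal response elements, short DNA motifs in the promoters of the metallothionein genes and of SLC30A1. Glucocorticoids, hypoxia and oxidative stress also induce some metallothioneins. MT2A and the MT1 genes are active in many tissues, while MT3 is best known in brain and MT4, from work in mice, in stratified squamous epithelium.

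The epithelial identity of the line was not visible in these libraries. All 6 epithelial markers (EPCAM, CDH1 and 4 keratins) and all 6 gastric mucosa markers stayed under an FPKM of 1, at most 0.797 and 0.066, and 4 of the gastric genes were listed at 0 in both. The mesenchymal filament gene VIM stood at 3161 in Ctrl and 3140 in SOS. Of the fibroblast markers 5 of 5 were measured, with a summed FPKM of 765 in Ctrl and 1139 in SOS, and none was at 0. Endothelial markers were at most 0.009. The part of these markers in the values below was not tested. The number of reads is not given in the sources used here. Values are FPKM, fragments per kilobase of transcript with scaling for depth and transcript length, so levels may be compared between genes with long transcripts. In short transcripts each read weighed more than length alone gives. A gene taken as 1 read had a median FPKM in Ctrl of 1.16 near 294 bases and 0.330 near 396 bases. The level of MT4, with 294 bases, is therefore not directly comparable with those of genes with longer transcripts.

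Of the 8 metallothionein members, MT2A and MT1X carried nearly all of the signal, MT4 carried a little, and MT1A, MT1E, MT1F, MT1G and MT1M were listed at 0 in both libraries. MT2A had an FPKM of 322 in Ctrl and 271 in SOS. MT1X had 157 in Ctrl and 124 in SOS. Both were thus lower in the SOS library, MT2A by 1.19-fold and MT1X by 1.27-fold as plain ratios. MT4 ran the other way, from 3.31 in Ctrl to 17.0 in SOS. The exporter SLC30A1 was at 4.62 and 4.66, and MTF1 at 2.77 and 2.50, so the sensor and its target at the cell surface differed by at most 1.11-fold. In Ctrl the order of levels was MT2A, MT1X, SLC30A1, MT4, MTF1. In SOS MT4 stood above SLC30A1 by FPKM, which weighs each read of its short transcript heavily, and the order was otherwise kept. With 1 library per group it cannot be said which neighbours in these orders differ beyond their spread.

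**Figure D1:**
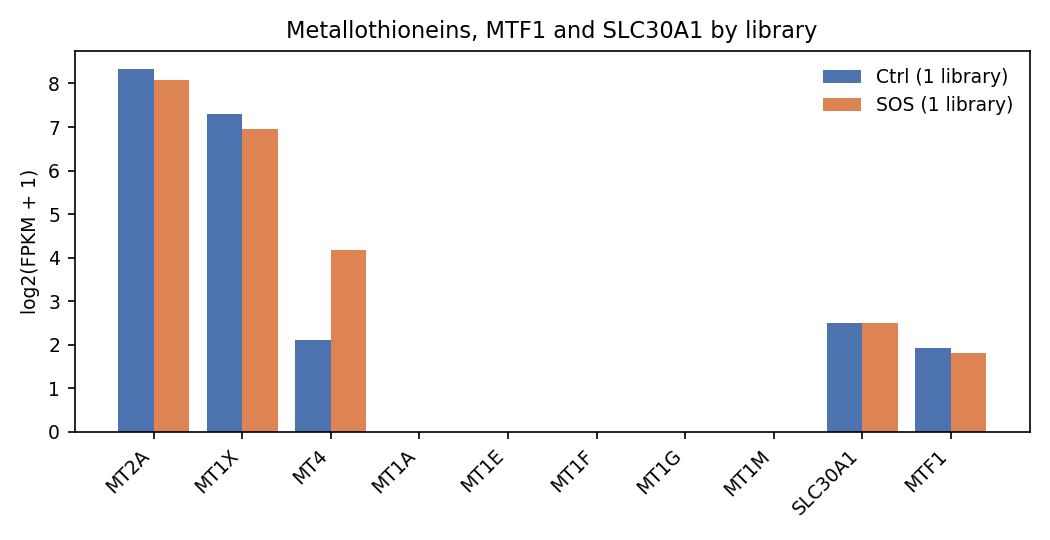
Level of each member as log2(FPKM + 1) in the Ctrl library and the SOS library, 1 bar per library and no error bars because each group has 1 library. MT2A and MT1X are the tallest pairs, MT4 is taller in SOS, and 5 MT1 genes are at 0.

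Sizes were compared as log2((SOS FPKM + 1)/(Ctrl FPKM + 1)), which understates differences at low level, for genes that reached an FPKM of 1 in Ctrl or in SOS. An absolute value of 1 or more, that is 2-fold on this scale, counts as past the size rule. The rule was met by 5.39% of 14288 genes, by 3.74% on the higher side and 1.64% on the lower side. Of the 10 members, 5 passed the minimum and 1 of these, MT4, was past the size rule, at 2.06 on the higher side. That single member is read against the background of 3.74%. The other 4 measured members lay at -0.34 for MT1X, -0.25 for MT2A, -0.11 for MTF1 and 0.01 for SLC30A1, against a median of -0.05 for all genes tested. The choice of scaling decides how the background splits. With the 2 library sums made equal the median of all genes went to 0.16 and the higher genes were 84.6% of those past the rule, against 69.5% as deposited. Under that scaling MT2A came to -0.02, MT1X to -0.12, SLC30A1 to 0.20 and MTF1 to 0.06, the last with its sign turned.

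Taken as a pool, metallothionein RNA held nearly the same share of the summed FPKM in both libraries. The 8 members summed to an FPKM of 483 in Ctrl and 412 in SOS, which was 0.0545% of the summed FPKM in Ctrl and 0.0544% in SOS. The log2 ratio of the summed levels was -0.23 as deposited and -0.0024 with equal library sums. MT2A made up 66.7% of the pool in Ctrl and 65.8% in SOS, and MT1X 32.6% and 30.1%. The remainder was MT4, 0.686% in Ctrl and 4.12% in SOS, which rests on few reads of a short transcript. The near-equal share is owed in part to MT4, as MT2A and MT1X each came out lower, at -0.02 and -0.12, with equal library sums. MT2A was 2.04 times MT1X in Ctrl and 2.19 times MT1X in SOS.

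MT2A and MT1X were among the abundant transcripts of these cells. MT2A ranked 315 of 21733 genes above 0 in Ctrl and 288 of 22240 in SOS, and MT1X ranked 660 and 646. Both belong to the fifth of tested genes with the highest mean level, where the median log2 ratio was -0.34 and 81.9% of 2858 genes lay below 0. The genes with levels most like those of MT2A, by distance on log2(FPKM + 1) over the 2 libraries, were the tropomyosin TPM4 (315 and 275), the vesicle-coat cargo receptor TMED10 (322 and 279) and the coatomer subunit COPE (312 and 265). For MT1X they were RSL1D1 (160 and 124), the kinase MAP2K2 (155 and 124) and RABGGTB (158 and 120). With only 2 libraries such closeness describes level alone. For MT1E no such genes can be named, because 3719 other coding genes share its values of 0.

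In the authors' deposited table, MT2A had a log2 ratio of 0.44 and MT1X one of 0.62. That ratio runs control over SOS, as 99.7% of genes that reached an FPKM of 5 in both libraries carry the sign of Ctrl over SOS. If instead the FPKM columns were exchanged, every direction given here would turn. The authors' deposited table gives an adjusted p of 0.000448 for MT2A, 0.000917 for MT1X, 0.0226 for MT4, 0.0622 for SLC30A1 and 0.921 for MTF1. The test behind these values is not given in the sources used here, and it cannot have measured the spread between cultures with 1 library per group. A separate column of the authors' deposited table, headed significant, reads no for all 10 members, and the sources used here do not state its criterion.

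The coding sequences show how alike the family members are and what makes them metal binders. They are given for MT2A and MT1X, which carry the signal, for MT1E as a close copy listed at 0, and for MT4, the most distant member. Letters come from GENCODE release 29 transcripts on GRCh38, from the start codon to the stop codon, and capitals mark every in-frame TGC or TGT, the codons for cysteine, whose sulfur atoms hold the metal.
MT2A: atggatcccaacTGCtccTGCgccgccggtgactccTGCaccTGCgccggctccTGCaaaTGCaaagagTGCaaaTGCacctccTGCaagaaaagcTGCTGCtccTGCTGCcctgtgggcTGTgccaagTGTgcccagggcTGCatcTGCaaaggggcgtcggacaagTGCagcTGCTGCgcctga
MT1X: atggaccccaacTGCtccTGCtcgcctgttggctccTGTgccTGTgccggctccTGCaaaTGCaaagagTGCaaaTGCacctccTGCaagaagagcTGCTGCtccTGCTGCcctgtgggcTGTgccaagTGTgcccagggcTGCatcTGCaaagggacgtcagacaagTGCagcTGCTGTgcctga
MT1E: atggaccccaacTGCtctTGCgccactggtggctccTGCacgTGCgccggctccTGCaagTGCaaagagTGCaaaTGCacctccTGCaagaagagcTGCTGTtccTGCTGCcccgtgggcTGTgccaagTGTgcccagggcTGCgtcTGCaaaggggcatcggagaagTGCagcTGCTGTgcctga
MT4: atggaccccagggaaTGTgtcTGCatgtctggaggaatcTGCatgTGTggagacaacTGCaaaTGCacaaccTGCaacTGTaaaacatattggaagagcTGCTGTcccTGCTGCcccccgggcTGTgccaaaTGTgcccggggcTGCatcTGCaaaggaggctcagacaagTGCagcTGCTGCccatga
MT2A, MT1X and MT1E each have 61 codons before the stop, and 20 of them, 32.8%, are cysteine codons. MT4 has 62 codons with 19 for cysteine. MT2A and MT1X are identical at 92.5% of their coding positions, as are MT2A and MT1E. Over the 21 pairs among the 7 MT1 and MT2 members the identity ran from 88.7% to 94.6%, whereas MT4 matched the others at 67.7% to 72.5%.

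Such likeness bears on how reads are shared among the copies. Of all windows of 50 bases in the MT1X transcript, 14.7% also occur in a transcript of another metallothionein member or of MT1B, MT1H or MT3. The share was 2.17% for MT2A, 0.458% for MT1E, 19.9% for MT1G and 0 for MT4. Most of each transcript is therefore distinct over 50 bases from those of the searched genes. MT1HL1 and the metallothionein pseudogenes were not searched, so the true shares may be higher. The split between MT1X and its relatives is uncertain, since how the authors assigned shared reads is not given in the sources used here. MT1X also overlaps AC026461.1, a transcript on the same strand, over 1727 bases, and that transcript was listed at 0 in both libraries.

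The metallothionein members sit together on chromosome 16 (GRCh38), between 56565049 and 56684196, a stretch of 119 kb in which 7 lie on the plus strand and MT1G on the minus strand. Along this stretch MT4 comes first (56565049 to 56568957), MT2A follows (56608199 to 56609497), then MT1E, MT1M, MT1A, MT1F and MT1G, and MT1X comes last (56682424 to 56684196). The 5 members listed at 0 thus lie between MT2A and MT1X. MT1E spans 56625475 to 56627112, MT1M 56632233 to 56633986, MT1A 56638666 to 56640087, MT1F 56657694 to 56660698 and MT1G 56666731 to 56668065. MTF1 and SLC30A1 are both on chromosome 1, at 37809567 to 37859620 and 211571568 to 211578742.

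A further 12 metallothionein genes and pseudogenes by name are in the table, and 11 of them, MT1B and MT1H included, were listed at 0 in both libraries. The exception was MT3, at 0 in Ctrl and 0.189 in SOS. Its p in the authors' deposited table, 0.204, was the commonest p among genes seen in the SOS library only, and such genes are taken here to be single reads.

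A value of 0 was common for coding genes with short transcripts. Of coding genes whose longest annotated transcript had over 320 and up to 400 bases, the range of MT1A, 72.7% of 55 were at 0 in both libraries. The share was 63.1% of 344 genes at over 500 and up to 700 bases (MT1G), 51.2% of 414 at over 700 and up to 900 bases (MT1E and MT1M), and 22.0% of 6071 at over 1500 and up to 3000 bases (MT1F and MT1X). Over 3000 bases it was 9.16%. MT1F, whose longest annotated transcript has 1573 bases, was therefore at 0 in a length range where most coding genes were not, although its coding transcripts are shorter. In a transcript of 396 bases, the length of MT1A, a gene taken as 1 read had a median FPKM of 0.330 in Ctrl (20 genes within 10 bases of that length) and 0.423 in SOS (16 genes). Levels below that could not be seen at this depth for MT1A, and whether the zeros reflect silence of the genes was not tested.

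**Figure D2:**
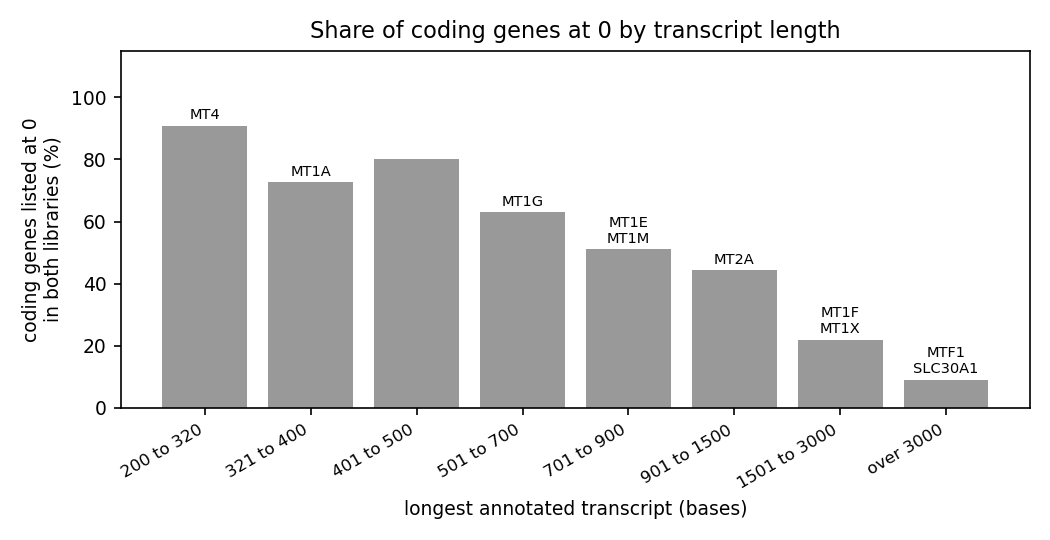
Percentage of protein-coding genes listed at 0 FPKM in both libraries, by the length in bases of their longest annotated transcript, with the members named above the bar of their length. The share falls from 90.9% at 200 to 320 bases to 9.16% over 3000 bases.

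MT4, the only member past the size rule, rested on few reads. Its plain FPKM ratio was 5.12-fold, SOS over Ctrl. Its log2 ratio in the authors' deposited table, -1.874 for control over SOS, is within 0.0006 of the log2 of 3 over 11, and no other pair of whole numbers up to 20 comes as near. That ratio is shared by 17 entries of the authors' deposited table, at 4 different p values. MT4 has the highest of these, 0.00922, as do 9 other entries, which is where the smallest pair of whole numbers would fall. The level per read gives the same numbers. In transcripts within 10 bases of 294, the length of the single annotated MT4 transcript, a gene taken as 1 read had a median FPKM of 1.16 in Ctrl (15 genes) and 1.50 in SOS (18 genes). Divided by 3 and 11, the MT4 levels come to 1.10 and 1.54 per read. On that reading the ratio of reads is 3.67, with an exact 95% Clopper-Pearson interval from 0.969 to 20.5. That interval covers counting error only, takes no account of depth and includes 1. It is an interval of reads and not of FPKM. As the level per read was 1.10 in Ctrl and 1.54 in SOS, equal FPKM would mean fewer reads in SOS than in Ctrl. At these levels per read, equal FPKM lies below the lower end of 0.969, although the interval holds a read ratio of 1. The interval does not cover the spread between cultures, and MT4 was singled out by its size. In transcripts of at least 3000 bases a gene taken as 1 read had a median FPKM of 0.009 in Ctrl and 0.008 in SOS, so a given FPKM stands for far fewer reads in MT4 than in MTF1 or SLC30A1.

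**Figure D3:**
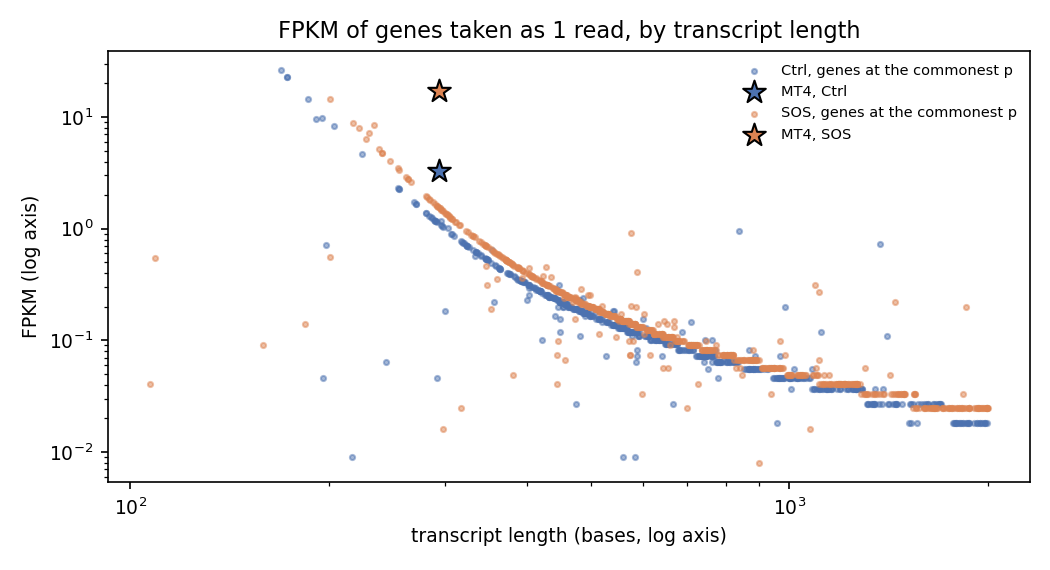
FPKM of genes at 0 in the other library and at the commonest p for such genes, taken as 1 read, against the length of their single annotated transcript of up to 2000 bases, both axes logarithmic, with MT4 as stars. The FPKM of 1 read falls steeply with length, and at 294 bases MT4 lies above this line in both libraries, by about 3 reads in Ctrl and 11 in SOS.

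Short transcripts as a class differed often between the libraries. Of 188 tested genes of any type whose longest annotated transcript had at most 320 bases, 126 were past the size rule, which is 67%, in both directions (75 higher and 51 lower), against 5.39% of all tested genes. Near 294 bases a gene taken as 1 read had a median FPKM of 1.16 in Ctrl and 1.50 in SOS. With 1 added to each FPKM, 1 read against none can thus meet both the minimum and the rule. The 67% is therefore set in part by the minimum and the rule, and how many of the 126 rest on single reads was not tested. These short genes are mostly not coding: 5 of the 188 are, MT4 among them. Without such short genes none of the other 4 measured members was past the rule. On the same scale the 2 long members stood close to 0, and they are also measured with the most bases: the longest annotated transcripts of MTF1 and SLC30A1 have 7972 and 5474 bases.

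**Figure D4:**
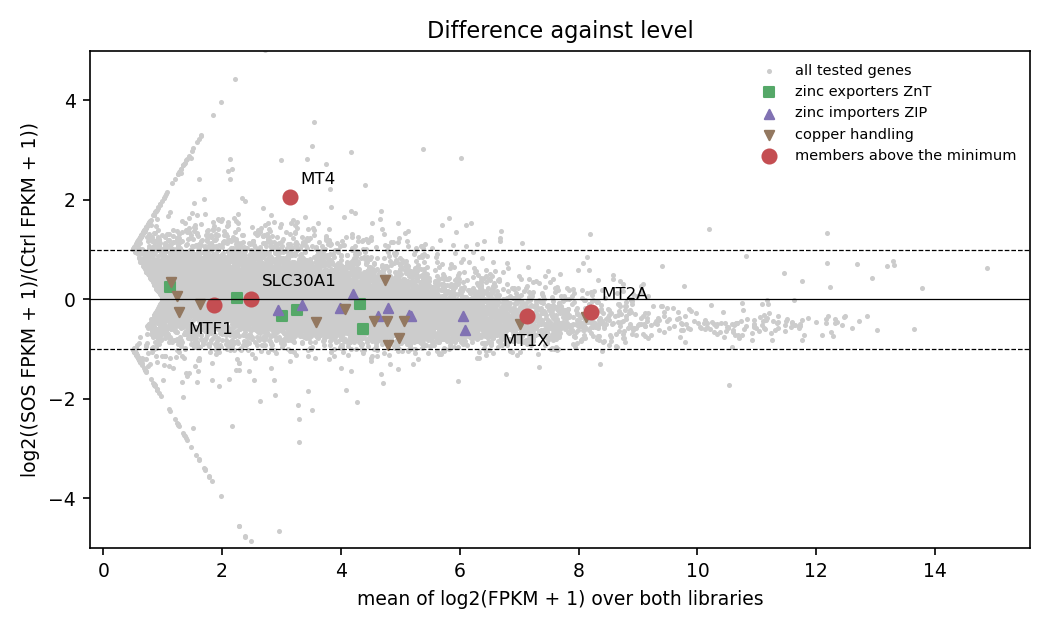
Log2 ratio of SOS over Ctrl, with 1 added to each FPKM, against the mean log2 level of all 14288 tested genes (grey, 2 of them outside the axis), the measured members (red) and the zinc and copper genes. Dashed lines mark the size rule, and MT4 at 2.06 is the only marked gene beyond them.

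Promoters are shown for the 3 measured metallothionein genes and SLC30A1, since MTF1 acts through metal response elements. The core of that element was searched on both strands as TGCACNC and TGCGCNC, which cannot match at the same place on the same strand, in the 250 bases before the RefSeq start (RefSeq, GRCh38.p14). Promoter sequences matched 5 of the 10 members. Capitals mark matches, read forward or, as GNGTGCA and GNGCGCA, for the other strand.
MT2A, chr16:56608334-56608583, plus strand: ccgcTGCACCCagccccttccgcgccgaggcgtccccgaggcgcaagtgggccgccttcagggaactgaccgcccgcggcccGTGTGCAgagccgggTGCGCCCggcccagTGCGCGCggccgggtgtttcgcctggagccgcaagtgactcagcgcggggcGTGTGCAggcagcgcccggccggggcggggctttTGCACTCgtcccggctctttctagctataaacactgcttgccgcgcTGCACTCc
MT1X, chr16:56682220-56682469, plus strand: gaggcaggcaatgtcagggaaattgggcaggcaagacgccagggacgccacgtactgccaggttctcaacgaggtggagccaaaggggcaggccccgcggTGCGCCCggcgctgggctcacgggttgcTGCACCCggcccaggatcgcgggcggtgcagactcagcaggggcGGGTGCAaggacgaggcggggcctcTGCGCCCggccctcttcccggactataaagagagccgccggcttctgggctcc
MT4, chr16:56564823-56565072, plus strand: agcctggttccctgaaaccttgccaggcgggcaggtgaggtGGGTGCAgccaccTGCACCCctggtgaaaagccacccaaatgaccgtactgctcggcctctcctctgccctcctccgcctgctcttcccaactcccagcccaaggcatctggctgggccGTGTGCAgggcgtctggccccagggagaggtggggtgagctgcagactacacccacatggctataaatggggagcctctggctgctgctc
SLC30A1, chr1:211579162-211579411, minus strand: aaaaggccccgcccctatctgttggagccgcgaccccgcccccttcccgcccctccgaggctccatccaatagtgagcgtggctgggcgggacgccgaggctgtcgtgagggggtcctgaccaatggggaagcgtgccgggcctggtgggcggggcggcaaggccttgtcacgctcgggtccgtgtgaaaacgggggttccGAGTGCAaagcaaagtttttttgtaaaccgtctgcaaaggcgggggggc
MT2A has 7 matches, at 246, 168, 153, 139, 88, 54 and 8 bases before the start to the first base of each. MT1X has 4, at 150, 122, 78 and 53. MT4 has 3 and SLC30A1 has 1, while the window of MTF1 has none. For scale, 24.8% of the 35116 promoter windows of the same length hold at least 1 match, 9.87% hold TGCACNC and 16.8% hold TGCGCNC. At least 7 matches, as in MT2A, occur in 0.0313% of the windows, at least 4 in 0.370% and at least 3 in 1.58%. Of the metallothionein genes listed at 0, MT1H has 8 matches and MT1B has 3. A match is a run of letters and was not tested for binding. The counts also depend on the start used, as RefSeq and GENCODE starts differ for some genes. The SLC30A1 window lies wholly upstream of its GENCODE start at 211578742, and the bases next to that start were not searched. The MT2A window lies inside its GENCODE span of 56608199 to 56609497.

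No other gene of zinc handling that reached an FPKM of 1 in Ctrl or SOS was past the size rule. Of the 10 ZnT exporters, SLC30A1 included, 7 were measured and none was past the size rule, which 5.39% of all tested genes met. In lists as short as these, none past the rule is close to that share. Their median was -0.10, which turned to 0.12 with equal library sums. SLC30A5, which loads zinc into the early secretory pathway, had the lowest ratio, at 24.4 in Ctrl and 15.8 in SOS (-0.60). The vesicular transporter SLC30A3 was at 8.07 and 6.17, SLC30A6, the partner of SLC30A5, at 9.40 and 7.90, SLC30A9 at 19.6 and 18.3, and SLC30A4 at 0.998 and 1.39. SLC30A2 and SLC30A10, an exporter of manganese, were at 0 in Ctrl and at 0.016 and 0.025 in SOS.

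Of the 14 ZIP importers 10 were measured, 9 of them below 0, with a median of -0.26. None was past the size rule, which 5.39% of all tested genes met. With equal library sums 6 of the 10 were below 0, with a median of -0.05. SLC39A1, a zinc importer of the cell surface, was at 83.8 in Ctrl and 54.1 in SOS (-0.62). SLC39A7, which releases zinc from the endoplasmic reticulum, was at 73.6 and 57.7, SLC39A3 at 39.7 and 31.1, and SLC39A6 at 26.6 and 21.0. SLC39A10, whose gene MTF1 is known to repress in mouse cells, was at 9.59 and 8.82. Across all genes tested 45.8% lay above 0 as deposited, against 1 of the 10 ZIP genes. That share depends on level, however. Of 2857 genes with a mean log2(FPKM + 1) from 3.91 up to 5.10, 66.1% lay below 0. Of 2858 genes from 5.10 upward, 81.9% did. Most of the measured ZIP genes lie in these ranges. Whether the ZIP list differs from genes of like level was not tested.

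All 14 copper-handling genes were measured, and none was past the size rule, which 5.39% of all tested genes met. Of the 14, 11 were below 0, with a median of -0.40 (-0.18 with equal library sums, then with 9 below 0). Many of them lie in the level ranges named for the ZIP genes, where 66.1% and 81.9% of tested genes lay below 0. The copper list was not compared with genes of like level. Its lowest gene was SCO2, which delivers copper to cytochrome oxidase, at 37.2 in Ctrl and 19.1 in SOS (-0.93). COMMD1, a factor in copper export, was at 40.3 and 23.1, the copper chaperone ATOX1 at 153 and 108, and STEAP3, a metal reductase, at 13.0 and 9.24. SOD1, the copper and zinc superoxide dismutase, was at 317 and 246, close to MT2A in level. CCS, the chaperone that loads SOD1, stood above 0, at 22.5 and 29.6.

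**Figure D5:**
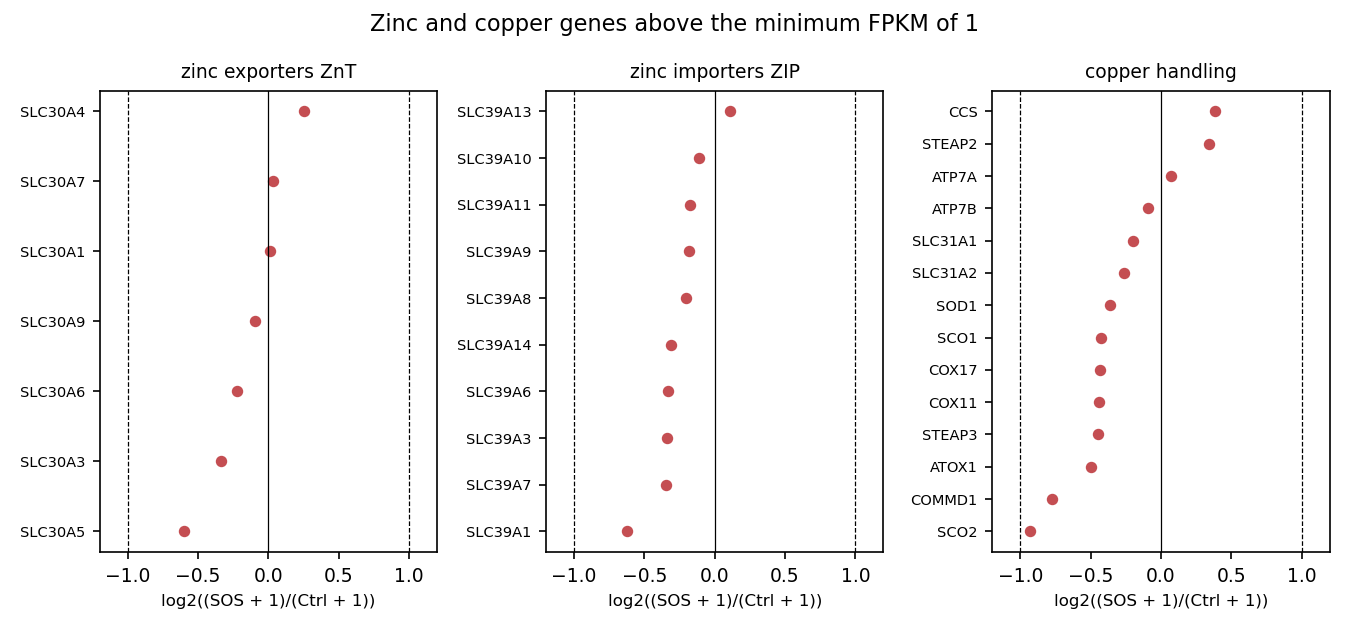
Log2 ratio of SOS over Ctrl, with 1 added to each FPKM, for the ZnT, ZIP and copper genes that reached an FPKM of 1 in Ctrl or SOS; dashed lines mark the size rule. No gene passes them, and SCO2 at -0.93 and SLC39A1 at -0.62 lie farthest below 0 in their lists.

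Some genes that metals and oxidants induce together with metallothioneins were listed as well. Of 11 listed genes 10 were measured, 8 below 0 (likewise with equal library sums), with a median of -0.43 against -0.05 for all genes tested, of which 45.8% lay above 0. The share of tested genes below 0 rose with level, and the listed genes were not compared with genes of like level. By the size rule 1 listed gene was higher and 1 was lower, beside 3.74% and 1.64% of all tested genes. HSPA1B, the inducible HSP70 gene, and SLC7A11, the cystine importer, were the ones past it, at -1.51 and 1.56. HMOX1, the heme oxygenase that cadmium strongly induces, was at 11.0 in Ctrl and 7.59 in SOS. HSPA1A stood at -0.96 and the co-chaperone DNAJB1 at -0.78, and NQO1, an NRF2 target, was at 216 and 167. HSPA6, an HSP70 gene that is almost silent without stress, was at 0.513 and 0.534. HSPA1A and HSPA1B are near-identical, so the split between them is uncertain.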

How the data were processed

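RNA sequencing of 1 Ctrl and 1 SOS library was analysed. Per the file headers, the deposited table holds 2 columns of FPKM, a log2 ratio, a p-value, its adjusted form and a yes or no mark of significance, all made by the authors. HISAT2, Cufflinks, RSEM and the build GRCh38.p10 are named, with no role or version, per the submitters' processing notes. Not given in the sources used here are strandedness and the test behind the p-values. Of 58645 entries, 412 without a name and 27 with names turned into dates were left out, and entries sharing a name (213 names) were summed. Positions and lengths come from GENCODE release 29, matched by name for 96.6% of genes. Python 3.11.15, pandas 2.3.3, scipy 1.17.1 and Biopython 1.88 (global alignment) were used. A run of the size rule on simulated data checked the code only, and no result given here rests on it. That run does not bear on genes with few reads, such as MT4. The members are all named. From each further list the 4 genes with the largest absolute log2 ratio and the 2 with the highest mean FPKM are named. HSPA6, HMOX1, SLC39A10, CCS, SLC30A2, SLC30A10 and NR3C1 were added after their values were seen. Members and lists were chosen with earlier results of these data known. Alternatives changed the pseudocount, minimum FPKM, scaling, the source of the ratio, the handling of shared names and, added after seeing the data, short genes and the offset of the authors' ratio.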

Additional observations from a re-analysis of the deposited data

How the results depend on the processing

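MT4 stayed past the size rule on the higher side under all 9 alternatives that give it a value, from 1.87 to 2.32. Dropping the minimum FPKM, raising it to 5 or taking only the highest entry of a name could not change its value. The count of members past the rule went from 1 to 0 without genes whose longest transcript has 320 bases or less, a setting that removes MT4 itself. MT2A ranged from -0.44 to -0.02, MT1X from -0.62 to -0.12 and SLC30A1 from 0.01 to 0.30, none with a change of sign, whereas MTF1 ran from -0.31 to 0.06 and turned positive under both rescalings. The log2 ratio of the summed metallothioneins ran from -0.23 to -0.0024. The median of the ZnT genes ran from -0.28 to 0.12, that of the ZIP genes from -0.45 to -0.05 and that of the copper genes from -0.57 to -0.18. By the authors' ratio, turned to SOS over control, 1 copper gene passed the rule and 549 genes were lower. The counts of all genes were 1094 higher and 442 lower with a pseudocount of 0.1, 273 and 126 with a minimum FPKM of 5, 889 higher with equal library sums, and 930 higher by the authors' ratio with its median offset of 0.15 removed. The cause of these moves was not tested. No paired analysis was possible because each group has 1 library. The FPKM give no counts, so precision is set by reads that are not stated.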

Other observations

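Glucocorticoids induce MT2A, so their other target genes were listed beside it. Of 9 genes 7 were measured, 3 above 0 and 1, TSC22D3, past the size rule on the higher side. Of all tested genes 3.74% were past it on that side. TSC22D3, which encodes the glucocorticoid-induced leucine zipper, was at an FPKM of 13.5 in Ctrl and 43.3 in SOS, a 3.22-fold difference. FKBP5, a co-chaperone of the steroid receptors, went the other way, at 29.6 and 20.8, and so did the phosphatase DUSP1, at 4.31 and 2.86. KLF9 was at 4.54 and 7.01. NR3C1, the glucocorticoid receptor gene itself, was at 0.018 in Ctrl and listed at 0 in SOS. The median was -0.03, and 0.17 with equal library sums.

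The genes around the metallothionein cluster on chromosome 16 were measured in 6 of 9 cases, with 5 below 0 (3 with equal library sums). None was past the size rule, which 5.39% of all tested genes met. These neighbours were not compared with genes of like level. NUP93, a nuclear pore subunit, was at 68.4 and 45.7, NUDT21, a factor of RNA cleavage, at 169 and 129, and OGFOD1 at 38.9 and 33.1. HERPUD1, a gene of the endoplasmic reticulum stress response, was at 70.5 and 69.1. BBS2, the gene of a cilium transport complex, was the member above 0, at 36.2 and 49.5.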
